A study of Mus musculus with 24 samples.

Results

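The data compared are the 3 arrays of mice given an Ephedra herba extract for 3 days, 1 each from brain, heart and liver, set against the 6 arrays of the same tissues at 24 hours and 5 days. These 9 arrays are part of a series of 24. They were chosen by their titles, as the 3-day arrays and the neighbouring times on either side, and the comparison was proposed after earlier results of these data had placed the 3-day arrays apart from both neighbours. Gene values of this contrast are therefore a description of these arrays, and the tests below measure only how large a difference is against the spread between them.

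The animals were female C57BL/6 mice, 5 weeks old, kept on a light and dark cycle. All 9 arrays come from treated mice, which took an aqueous extract of the herb orally at 50 mg/kg. The sources used here do not say whether the dose was repeated up to 3 or 5 days, how many animals stand behind an array or whether 1 animal gave all 3 tissues, nor the hour of the day of sampling. Each tissue has 1 array at each time, so single values have no replicate error, and the 3 tissues served as the replicates of a time. Levels are the deposited log2 values, in which 0 is about the median of an array. A positive change means higher at 3 days than the mean of 24 hours and 5 days.

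Ephedra herba is the dried stem of a plant whose ephedrine alkaloids act on adrenergic signalling, both directly and through release of noradrenaline. Several kinds of transcript turn over on the scale of hours to a day and so differ easily between neighbouring sampling times. Clock genes form a feedback loop in which CLOCK and BMAL1 switch on their own repressors through E-box sequences, and the factor DBP acts on D-box sequences in other genes with a daily rhythm. Glucocorticoid hormones drive a second daily programme, and immediate early genes such as Junb, Egr1 and Fos respond within minutes to hormones, nerve activity and stress.

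The tissue labels fitted their marker genes. The mean level of 12 neuron genes was 5.22, 5.37 and 5.34 on the brain arrays of 24 hours, 3 days and 5 days, and at most 0.63 on the heart and liver arrays of those times. Cardiomyocyte genes averaged 6.88, 7.65 and 7.06 in heart, and hepatocyte genes 7.71, 6.04 and 6.42 in liver. Among hepatocyte markers Alb, the albumin gene, read only 1.65, 2.30 and 0.59 in liver and the fibrinogen gene Fgb -0.14, 0.54 and -0.19, while Apoa1, the main apolipoprotein of high-density lipoprotein, read 11.07, 8.11 and 9.26.

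One array stood apart in the shape of its values. The 95th percentile of the liver array of 24 hours was 5.36, against 4.13 at 3 days and 4.52 at 5 days, while in brain it lay between 4.52 and 4.73 and in heart between 4.36 and 4.63. Ranked over all probes, which are no replicates of each other, the liver array of 24 hours had a Spearman correlation of 0.834 with 3 days and 0.817 with 5 days. The 3-day liver array correlated at 0.931 with 5 days. Among the third of genes with the highest mean level the median change at 3 days was -0.60 in liver, -0.15 in brain and 0.21 in heart, and after quantile normalization within each tissue it was -0.04, -0.01 and -0.04. Lists of abundant genes are for this reason given on both scales.

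**Figure D1:**
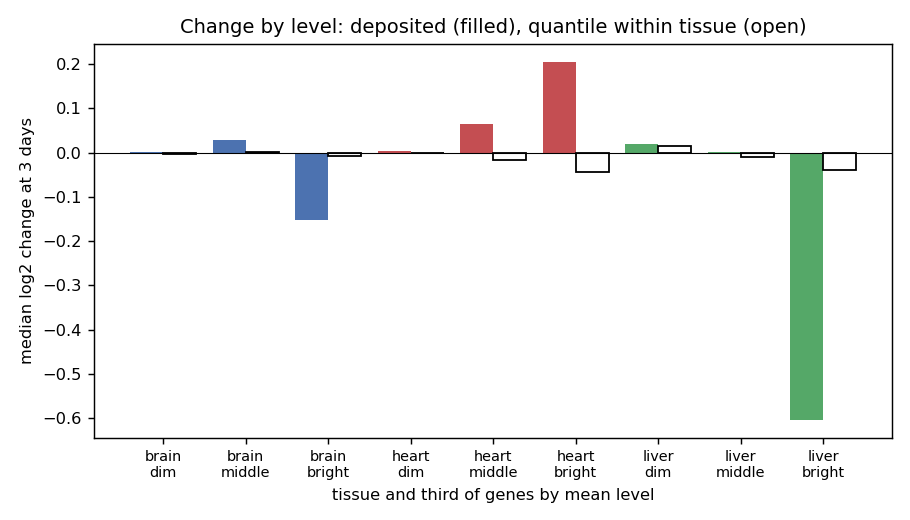
Median log2 change of the tested genes at 3 days against the mean of 24 hours and 5 days, by tissue and by mean level (3 equal classes), on the deposited values (filled bars) and after quantile normalization within each tissue (open bars). The brightest class stands at -0.60 in liver and 0.21 in heart on the deposited values and near 0 after normalization.

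Over the 3 tissues, 0 of 10934 genes differed at an adjusted p under 0.05 between 3 days and its neighbours (limma, 3 arrays against 6, lowest adjusted p = 0.0848), which is 0% of genes tested. At an unadjusted p under 0.05 there were 650 genes higher (5.94%) and 837 lower (7.66%). The 3-day array lay above both neighbouring arrays in all 3 tissues for 717 genes (6.56%) and below both for 1033 (9.45%). The liver array of 24 hours bore on this count: without it 245 genes were called higher and 239 lower. Without the 3-day liver array 10 and 1 were called, and without all liver arrays 698 and 406. After quantile normalization within each tissue the test called 114 genes higher (1.04%) and 279 lower (2.55%). A fit over all 24 arrays called 54 higher (0.494%) and 44 lower (0.402%).

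In brain and heart the 3-day array lay farther from its 2 neighbours than these lay from each other. The median absolute difference over genes in brain was 0.226 between 3 days and 24 hours, 0.228 between 3 days and 5 days, and 0.112 between 24 hours and 5 days. In heart the same differences were 0.204, 0.211 and 0.112. Liver ran otherwise, at 0.363, 0.206 and 0.347, so that there the array of 24 hours was far from both later ones. Set against each neighbour alone, 3 days gave 0 called genes (limma, 1167 at an unadjusted p under 0.05 against 24 hours and 920 against 5 days). The contrast of 24 hours with 5 days also gave 0, with 78 at an unadjusted p under 0.05.

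By the naming rule 6 genes stood out as higher at 3 days across tissues, although none passed the adjusted test. Junb encodes a subunit of the transcription factor AP-1. At 24 hours, 3 days and 5 days in that order, Junb read 1.85, 3.72 and 2.25 in brain, 0.91, 2.30 and 1.15 in heart, with 1.22, 2.70 and 1.55 in liver. The 3-day array was the highest of the 3 in each tissue, and the mean change was 1.42 (SE 0.15, 2.67-fold, limma adjusted p = 0.0848, higher in 3 of 3 tissues). Pa2g4, which encodes a growth-regulated protein that binds ribosomes, read 1.58, 2.79 and 1.91 in brain, 1.94, 3.03 and 2.12 in heart, with 2.26, 2.91 and 2.11 in liver. Its change was 0.92 (SE 0.13, 1.89-fold), again with no overlap between 3 days and the neighbours. Lbh, a transcription cofactor gene first known from limb bud and heart, read 2.41, 3.93 and 2.76 in brain, 6.14, 6.95 and 5.90 in heart, with 0.87, 2.03 and 1.12 in liver. The change of Lbh was 1.10 (SE 0.14), and a second probe of the gene gave 1.28. Junb and Lbh had like levels outside these times. Junb read 3.75 at 1 hour in brain and 3.42 untreated in liver. In heart Lbh read 6.85 untreated, 7.01 at 1 hour and 6.75 at 10 days. For Pa2g4, and for Mid1, Zmat1 and Ccdc144b below, the 3-day array was the highest of all times in each tissue.

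Mid1 encodes a microtubule-associated ubiquitin ligase. Its levels of 0.23, 1.33 and 0.46 in brain, 0.37, 1.51 and -0.14 in heart, with 0.33, 1.26 and 0.03 in liver put all 3 arrays of 3 days clear of the array median, while the 6 neighbours lay near it. The change of Mid1 was 1.15 (SE 0.16). Zmat1, a zinc finger gene, differed by 0.96 (SE 0.11), with 3-day levels of 2.50, 2.15 and 1.64 in brain, heart and liver against neighbours of 0.62 to 1.41. Ccdc144b, a coiled-coil gene, differed by 1.23 (SE 0.16), from levels of 0.05 to 1.14 on the neighbouring arrays to 1.93, 1.68 and 1.81 at 3 days. A second probe of Ccdc144b lay above the median on 0 of 24 arrays and gave 0.14.

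Lower at 3 days by the same rule were Sema4b, Sbf1, Ppp1r1b, Myl4, Rnf185 and Fbxw8. Sema4b encodes a membrane semaphorin, a guidance molecule, and read 3.43, 2.62 and 3.56 in brain, 3.38, 2.65 and 3.61 in heart, with 2.58, 1.49 and 2.64 in liver. In every tissue the array of 3 days was the lowest of the 3, at a mean change of -0.95 (SE 0.11, limma adjusted p = 0.0848, lower in 3 of 3 tissues). Sbf1, which encodes a myotubularin-related pseudophosphatase, read 4.49, 3.75 and 4.52 in brain, 3.22, 2.59 and 3.28 in heart, with 3.15, 2.05 and 2.94 in liver, a change of -0.80 (SE 0.11). Fbxw8 encodes the F-box subunit of a cullin ubiquitin ligase. It read 2.29, 1.77 and 2.44 in brain, 1.85, 1.24 and 2.00 in heart, with 2.01, 1.12 and 1.87 in liver, a change of -0.70 (SE 0.11, adjusted p = 0.110).

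Myl4 encodes the light chain of myosin in the atria. It read 4.10, 3.22 and 4.04 in brain, 7.55, 6.30 and 8.11 in heart, with 1.22, 0.03 and 1.05 in liver, a change of -1.16 (SE 0.17, adjusted p = 0.101). For Ppp1r1b, Rnf185 and Fbxw8, other probes of the same gene gave different values. Ppp1r1b encodes DARPP-32, a phosphatase inhibitor of striatal neurons, and its brightest probe differed by -0.85 (SE 0.12), with brain levels of 5.79, 5.08 and 5.93. The other Ppp1r1b probes, above the median on 17 and 20 of 24 arrays, gave 0.06 and -0.05. The chosen probe of Rnf185, a ubiquitin ligase gene of the endoplasmic reticulum, differed by -0.82 (SE 0.12), while another, above the median on 24 of 24 arrays, gave 0.19. A second probe of Fbxw8, above the median on 1 of 24 arrays, gave 0.08. Under quantile normalization within each tissue, and without the liver array of 24 hours, each of the 12 genes passed (highest adjusted p = 0.0250 and 0.0228). In the fit over 24 arrays 9 of them passed, 4 with robust eBayes and a variance trend, and 3 with the mean of a gene's probes. None of the 12 passed with arrays scaled to 1 median absolute deviation, with no filter or with the stricter filter. Of 12 fits that left out a tissue or an array, 10 called none of them and 2, both without the liver array of 24 hours, called all. With the mean of probes the change was -0.17 for Rnf185, -0.28 for Ppp1r1b, -0.31 for Fbxw8 and 0.68 for Ccdc144b.

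**Figure D2:**
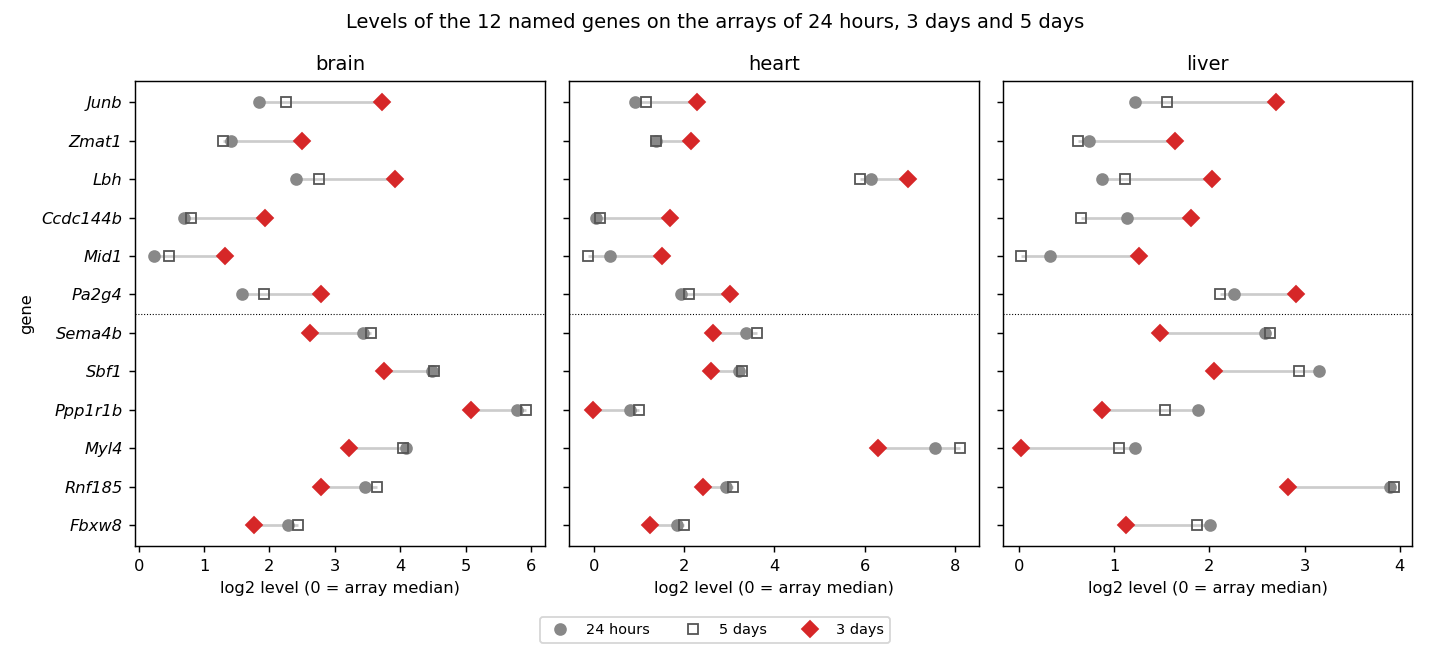
Log2 levels of the 12 named genes on the arrays of 24 hours (grey circles), 5 days (open squares) and 3 days (red diamonds), by tissue, with 1 array per point and 0 at about the array median. Above the dotted line the 3-day array is the highest of the 3 in each tissue, as for Junb at 3.72 in brain, and below the line it is the lowest, as for Sema4b at 1.49 in liver.

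Clock genes that peak with Dbp had the lowest median change of 20 gene lists over the 3 tissues on the deposited values, though not after quantile normalization. Of the 12 genes on the list 10 were tested, and their median change was -0.77 on the deposited values and -0.43 after quantile normalization within each tissue, against -0.02 and near 0 over all genes tested. At an unadjusted p under 0.05, 5 members were lower and 1 higher, beside 7.66% and 5.94% of all genes, and none passed the adjusted test. The 3-day array lay below both neighbours in all 3 tissues for 6 members and above both for 1, beside 9.45% and 6.56% of all genes. After quantile normalization the adjusted test called 2 members lower and 1 higher, beside 2.55% and 1.04% of all genes.

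Ciart encodes a repressor that binds BMAL1. It read 2.97, 2.12 and 2.93 in brain, 2.25, 1.65 and 2.25 in heart, with 4.84, 1.67 and 4.55 in liver. All 3 arrays of 3 days lay below both neighbours, at a mean change of -1.48 (SE 0.39, limma adjusted p = 0.191), and liver alone gave -3.02. A second Ciart probe, above the median on 20 of 24 arrays, gave -0.84 over the tissues. Per2, a core repressor of the clock, read 3.73, 3.41 and 3.88 in brain, 4.21, 3.16 and 4.16 in heart, with 6.10, 2.95 and 4.30 in liver, a change of -1.22 (SE 0.42). Dbp itself read 6.29, 5.37 and 6.32 in brain, 6.15, 6.02 and 6.29 in heart, with 6.47, 5.04 and 5.98 in liver. For its relative Tef the change was -0.79 (SE 0.17), with the array of 3 days lowest in each tissue.

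Nr1d1, which encodes the clock repressor REV-ERB alpha, went the other way. It read 1.84, 2.64 and 1.98 in brain, 1.96, 3.27 and 2.16 in heart, with 0.99, 2.61 and 1.29 in liver, a change of 1.14 (SE 0.16, limma adjusted p = 0.0848). Untreated, at 1 hour and at 10 days Nr1d1 had like levels, at 3.32, 3.61 and 3.09 in heart and 2.84, 2.55 and 2.23 in liver. Its paralog Nr1d2 was split by tissue, with 2.46, 1.67 and 2.35 in brain and 0.85, 1.86 and 0.96 in liver. Per1 was higher at 3 days in brain, at 3.10, 4.25 and 3.53, and in heart, at 3.40, 4.14 and 3.32, but not in liver, at 3.50, 3.12 and 3.36. Of the 4 tested genes that peak with Bmal1, Arntl, which encodes BMAL1, read -0.31, 0.66 and -0.26 in heart and differed by 0.46 over the tissues (SE 0.16), and Nfil3, a repressor of D-box genes, differed by -0.48 (SE 0.23). The median of these 4 was 0.10.

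The full course showed how the clock genes of 3 days compare with the other times. In liver Ciart read 0.11 untreated, 0.09 at 1 hour, 3.29 at 6 hours, 4.19 at 12 hours and -0.09 at 10 days, so that its 1.67 at 3 days lay between the low and the high times. Usp2, a deubiquitinase gene with a daily rhythm, read 1.62, 2.04, 5.08 and 6.05 in liver up to 12 hours, then 6.99, 3.37 and 6.27, and 0.98 at 10 days. In brain and heart its 3-day array lay slightly above both neighbours, at 4.62 and 5.98. The liver change of Usp2 was -3.26, or -1.73 with the mean of its probes. Over the 3 tissues the brightest probe gave -0.91 and 2 others -0.35 and -0.14. Gadd45g, a growth arrest gene, read 7.31, 2.41 and 5.98 in liver against 4.25 untreated and 2.60 at 10 days. The 3-day arrays of Gadd45g were also lower in heart, at 4.35, 3.24 and 4.43, and its second probe differed by -1.43 over the tissues.

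**Figure D3:**
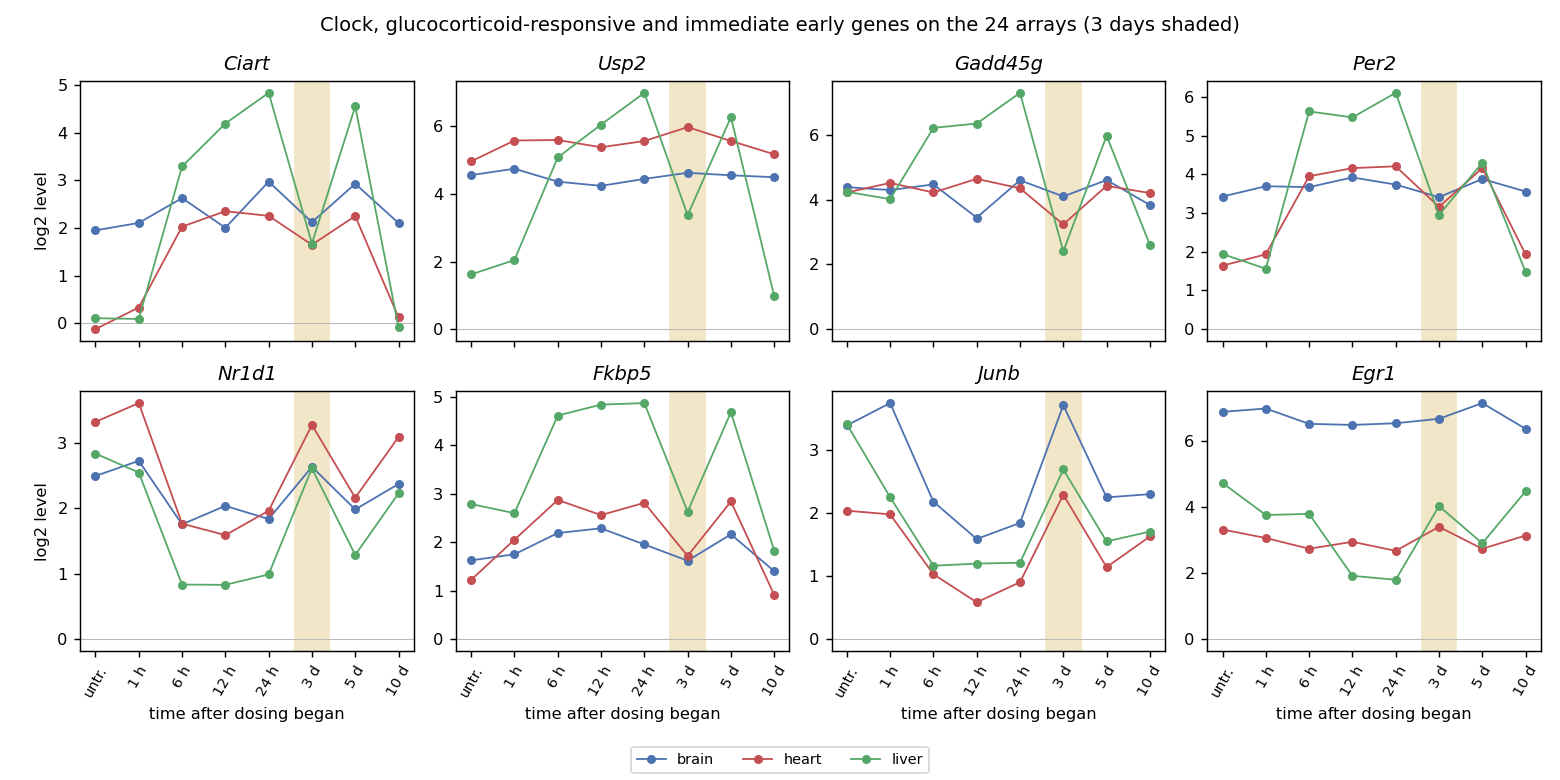
Log2 levels of 8 clock, glucocorticoid-responsive and immediate early genes on all 24 arrays, with 1 array per point, times in order along the x axis (not to scale) and 3 days shaded. In liver Ciart, Usp2, Gadd45g, Per2 and Fkbp5 stand lower at 3 days than at 24 hours and 5 days, as Ciart at 1.67, while Nr1d1 and Junb stand above both, at 2.61 and 2.70.

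Promoters are shown for 3 of these genes because they carry the letters through which clock proteins are known to act. The windows run from 250 bases before to 50 after a gene's start and come from RefSeq on build GRCm38.p6, and 9 of the 10 tested clock genes had at least 1 entry. Motifs were searched on both strands. The E-box CACGTG, which reads the same on either strand, occurred in 7.15% of 32851 promoters, and in a window of 3 of the 9 genes (Ciart, Per1 and Tef). The D-box TTANGTAA occurred in 2.32% of promoters and in that of 1 of the 9 genes, Per3. The percentages count single windows, whereas Per1, Tef and Tsc22d3 had more than 1 window each, so these measures are not alike. No window printed here held both motifs. Capitals mark the matches, which are letters in a window and not measured binding. The Ciart window (chr3:95882179-95882478, minus strand) holds 3 E-boxes, the Per3 window (chr4:151044616-151044915, minus strand) 2 D-boxes and the Gadd45g window (chr13:51846425-51846724, plus strand) 1 E-box.
Ciart: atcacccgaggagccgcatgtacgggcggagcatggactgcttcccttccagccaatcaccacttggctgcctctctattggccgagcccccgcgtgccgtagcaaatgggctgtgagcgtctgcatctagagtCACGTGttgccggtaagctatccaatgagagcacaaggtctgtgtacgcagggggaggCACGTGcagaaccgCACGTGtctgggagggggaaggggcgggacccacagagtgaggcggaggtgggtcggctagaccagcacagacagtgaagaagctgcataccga
Per3: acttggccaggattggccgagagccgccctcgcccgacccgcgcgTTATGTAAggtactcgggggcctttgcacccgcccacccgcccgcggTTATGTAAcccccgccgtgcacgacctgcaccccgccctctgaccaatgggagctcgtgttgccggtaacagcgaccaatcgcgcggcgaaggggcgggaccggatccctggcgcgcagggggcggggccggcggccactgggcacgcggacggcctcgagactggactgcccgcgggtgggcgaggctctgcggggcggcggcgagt
Gadd45g: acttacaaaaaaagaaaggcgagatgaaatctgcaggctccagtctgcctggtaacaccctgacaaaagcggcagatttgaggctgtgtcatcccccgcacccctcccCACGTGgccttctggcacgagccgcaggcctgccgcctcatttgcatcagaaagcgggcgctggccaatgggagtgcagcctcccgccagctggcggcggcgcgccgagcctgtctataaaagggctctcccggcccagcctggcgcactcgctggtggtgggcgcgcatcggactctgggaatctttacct
The genes with these letters did not share 1 direction or 1 size of change. Per1 was higher at 3 days in brain and heart but not in liver, while Tef was lower in each tissue. Ciart differed by -1.48 and Gadd45g by -1.97 over the tissues (SE 0.62), whereas Per3 differed by -0.40 (SE 0.19), from liver levels of 1.44, 0.57 and 0.73.

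Genes known to respond to glucocorticoids had lower values at 3 days, on the deposited scale mainly in liver. Of 15 listed, 13 were tested, and their median change was -0.60, or -0.30 after quantile normalization within each tissue. At an unadjusted p under 0.05, 5 were lower and 0 higher, beside 7.66% and 5.94% of all genes. By tissue the median was -0.35 in brain, -0.08 in heart and -1.36 in liver, which after normalization became -0.16, -0.28 and -0.32. Fkbp5, a chaperone of the glucocorticoid receptor, read 1.96, 1.62 and 2.17 in brain, 2.82, 1.72 and 2.84 in heart, with 4.87, 2.64 and 4.68 in liver. The 3-day array was lowest throughout, and the change was -1.23 (SE 0.27, limma adjusted p = 0.152). Tsc22d3, the leucine zipper gene GILZ, stands on this list and on the clock list and differed by -0.76 (SE 0.19), from 6.62, 5.20 and 6.37 in liver.

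Metallothionein genes, which bind zinc and respond to hormone and metal alike, were lower in brain and liver. Mt2 read 2.21, 1.33 and 2.23 in liver and 0.30, 0.05 and 0.34 in heart, and the 3-day array was the lowest in brain too, at 0.79. The change of Mt2 was -0.60 (SE 0.13). The brighter Mt1 read 8.63, 8.22 and 8.86 in brain and 11.15, 8.08 and 8.99 in liver, but 7.86, 8.24 and 8.05 in heart. Cdkn1a, which encodes the cell cycle inhibitor p21, differed by -0.71 (SE 0.27), nearly all of it in liver, at 1.93, 0.20 and 1.90. The kinase gene Sgk1 read 6.46, 5.75 and 6.49 in brain and 5.32, 3.75 and 4.39 in liver, a change of -0.68 (SE 0.23). Per1, the other gene on both lists, was not lower in brain or heart.

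Immediate early genes mostly had higher values at 3 days in brain and heart. By tissue the median change was 0.50 in brain, 0.39 in heart and 0.003 in liver, which after quantile normalization became 0.51, 0.26 and 0.04. Their mean level in brain was 1.68, 2.38 and 2.01 at 24 hours, 3 days and 5 days, against 2.40 untreated and 2.50 at 1 hour. Of 21 listed 16 were tested, with a median change of 0.31 (0.32 after quantile normalization), 4 higher and 0 lower at an unadjusted p under 0.05, beside 5.94% and 7.66% of all genes. Beside Junb these were Jund, Klf2 and Klf4. Jund, another AP-1 subunit gene, read 0.42, 1.89 and 0.52 in brain, 0.44, 1.19 and 0.65 in heart, with 0.38, 0.77 and 0.49 in liver, a change of 0.80 (SE 0.19). Klf2, a flow-responsive factor of endothelium, read 1.62, 2.19 and 1.76 in brain, 3.80, 5.07 and 3.95 in heart, with 1.39, 1.80 and 1.68 in liver. In each tissue the 3-day array of both genes was the highest of the 3.

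The activity genes differed more by tissue. Arc, a synaptic gene, read 2.63, 4.61 and 3.63 in brain, and Egr2 read 0.88, 2.33 and 1.63 there, both highest at 3 days, while in heart and liver both lay near the array median. Fos read 2.20, 3.09 and 2.97 in brain, so that 3 days and 5 days were close. Egr1 read 6.53, 6.66 and 7.13 in brain, 2.67, 3.40 and 2.73 in heart, with 1.80, 4.02 and 2.90 in liver, a change of 0.73 (SE 0.35) that brain did not share. Jun itself differed by 0.13 (SE 0.17). After quantile normalization 2 members of the list were called higher and 0 lower, beside 1.04% and 2.55% of all genes.

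Cell division genes were low on most of the 9 arrays. Of 27 listed, 18 were tested, with a median change of -0.23 (-0.20 after quantile normalization), 4 lower and 0 higher at an unadjusted p under 0.05, beside 7.66% and 5.94% of all genes. Cdc20, an activator of the anaphase-promoting complex, read 0.66, 0.02 and 0.57 in brain, 0.92, 0.25 and 0.87 in heart, with 0.33, 0.13 and 0.23 in liver. Birc5, the survivin gene, read 0.57, -0.26 and 0.36 in heart, and Mcm5, a subunit of the replicative helicase, read 1.15, 0.54 and 0.80 in liver. Cdc20, Birc5 and Mcm5 differed by -0.46, -0.46 and -0.43 (SE 0.12, 0.13 and 0.11), and for each the 3-day array lay below both neighbours in all tissues. The thymidine kinase gene Tk1 was bright only in liver, at 4.05, 2.66 and 3.80.

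Interferon-stimulated genes had 17 of 24 tested and a median of -0.12. At an unadjusted p under 0.05, 2 were lower and 0 higher, near the 7.66% and 5.94% of all genes. The 3-day array lay below both neighbours in all 3 tissues for 4 and above both for 0, beside 9.45% and 6.56%. In heart 3 lay at least 1.5-fold below both neighbours, beside 0.905% of all genes, and in brain and liver 0. None passed the adjusted test, and the genes below are given as values only. Bst2, the tetherin gene, read 0.33, -0.17 and 0.29 in brain, 1.44, 0.77 and 1.34 in heart, with 3.06, 2.52 and 3.32 in liver, a change of -0.59 (SE 0.11, limma adjusted p = 0.127). Isg15, a ubiquitin-like modifier, was the other of the 2 lower genes, at 0.91, 0.32 and 0.86 in brain and 1.77, 1.35 and 1.84 in heart. Liver Isg15 was level at 1.74, 1.74 and 1.76. Usp18, which removes that modifier, read 4.58, 2.70 and 3.09 in liver, a change of -0.70 over the tissues (SE 0.31).

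Of 19 listed genes of catecholamine signalling, on which ephedrine is known to act, 9 were tested. Their median change was -0.03, against -0.02 over all genes tested. None of the 9 was below an unadjusted p of 0.05, near the 5.94% higher and 7.66% lower among all genes. The genes below are given as values only. Maob, a monoamine oxidase gene, read 2.14, 2.40 and 2.18 in brain and 3.30, 3.79 and 3.34 in heart. In liver it ran downward, at 6.37, 5.33 and 4.84, for a change of 0.14 (SE 0.30). Slc6a3, the dopamine transporter gene, read 1.61, 2.15 and 1.85 in brain.

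In brain alone 0 genes were called (limma, 1446 at an unadjusted p under 0.05). The 3-day array lay at least 1.5-fold above both neighbours for 399 genes (3.65%) and below for 590 (5.4%). Ccl21a and Ccl21c, chemokines of lymphoid tissue, had large differences. Ccl21a read -0.25, 2.75 and -0.43, and Ccl21c -0.55, 1.99 and -0.65, and these near-identical copies may share signal between their probes. Neither was bright at 3 days alone, since Ccl21a read 3.05 untreated, 3.28 at 1 hour and 2.88 at 10 days, and -0.25 and -0.67 at 6 and 12 hours. The pituitary hormone genes Prl and Gh read -0.49, 3.21 and 0.48, and -0.38, 2.18 and 0.28. Prl also read 3.64 at 1 hour and 3.56 at 12 hours, and 0.89, -0.64 and -0.63 untreated, at 6 hours and at 10 days.

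Most tested genes of the cerebellum were lower in brain at 3 days. Pcp2, a Purkinje cell gene, read 5.23, 2.86 and 5.32, and Cbln1, a synapse organiser made by granule cells, read 6.63, 4.61 and 6.54. Gdf10, a growth factor gene, read 4.08, 2.10 and 3.99 in brain, and was also lower in heart, at 1.91, 0.81 and 1.74. The cerebellar transcription factors En2, Zic1 and Zic2 read 3.62, 1.79 and 3.45, then 4.44, 3.13 and 4.44, and 1.70, 1.10 and 1.82. Of 12 listed cerebellum markers 10 were on the array and 6 passed the filter, so they do not stand for the whole list. Their mean level was below 0 on all heart and liver arrays, so the filter rested mainly on brain. Of these 6, 5 lay at least 1.5-fold below both neighbours, beside 5.4% of all genes, and Grm4, at -0.20, -0.07 and 0.00, did not. Pcp2 and Cbln1 had been named by these same brain values, so the count is a description and not a test.

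The mean level of those 6 cerebellum markers on the brain arrays was 1.17 untreated, 0.87 at 1 hour, 3.19 and 3.14 at 6 and 12 hours, 3.57 at 24 hours, 2.24 at 3 days, 3.59 at 5 days and 2.24 at 10 days. Of 8 pituitary genes listed 7 were on the array, and only Prl and Gh passed the filter, so they do not stand for the whole list. The mean brain level of these 2 was -0.44, 2.69 and 0.38 at 24 hours, 3 days and 5 days. Over those 3 arrays the 12 neuron genes averaged 5.22, 5.37 and 5.34. In whole tissue, fewer cells of a type and less RNA per cell cannot be told apart, and the part of the regions held in each brain sample was not tested.

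In heart alone 0 genes were called (limma, 1003 at an unadjusted p under 0.05), and the 3-day array lay at least 1.5-fold above both neighbours for 570 genes (5.21%) and below for 99 (0.905%). After quantile normalization within the tissue these counts were 191 and 231. Ptgds, a prostaglandin D synthase gene, read 3.07, 5.65 and 3.20, and Selenow, a selenoprotein gene of muscle and brain, read 3.23, 5.02 and 3.24. Selenow was higher in brain also, at 4.54, 6.02 and 4.71. As in the case of Ccl21a, heart Ptgds had a like level on other arrays, at 5.76 untreated, 5.64 at 1 hour and 5.72 at 10 days. Selenow at those times read 4.51, 4.61 and 4.71 in heart and 5.89, 6.00 and 5.78 in brain. These were closer to its 3-day levels than 24 hours and 5 days were. Cpeb3, a regulator of translation, read 2.00, 3.54 and 1.93, and its highest other heart array read 2.33.

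Several atrial genes were lower in heart at 3 days. Myl7 read 5.64, 4.06 and 6.24, Sln, an inhibitor of the calcium pump, 5.83, 4.73 and 6.57, and the secreted protein gene Dkk3 4.13, 3.45 and 4.87. Nppa, the natriuretic peptide gene, went the other way at 8.22, 8.78 and 8.39. Of 8 tested atrial markers, 4 lay at least 1.5-fold below both neighbours and 0 above, beside 0.905% and 5.21% of all genes. The rest, Nppa among them, did not reach that distance. Myl7 had been named by these same heart values, so the count is a description and not a test. The 8 had a median heart change of -0.72 (-0.87 after quantile normalization). Their mean heart level was 5.30 untreated, 3.60 at 1 hour, 4.35 and 4.82 at 6 and 12 hours, 4.39 at 24 hours, 3.86 at 3 days, 4.90 at 5 days and 4.98 at 10 days. The part of atrial tissue in each sample was not tested.

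Ucp1, the uncoupling protein of brown fat, read 1.13, -0.16 and 1.69 in heart, and 0.02, -0.37 and -0.29 untreated, at 1 hour and at 10 days. The brown fat markers Cidea and Cox8b did not follow: Cidea read 3.64, 4.17 and 3.77, and Cox8b 7.95, 8.76 and 8.14. H2ac10, a histone gene, read 2.43, 1.03 and 2.40. Cardiomyocyte genes had a median heart change of 0.71, which was 0.14 after quantile normalization. Myl3 among them read 8.18, 9.31 and 8.44. For 45 genes of oxidative phosphorylation the heart median was 0.53, and it was -0.01 after normalization.

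**Figure D4:**
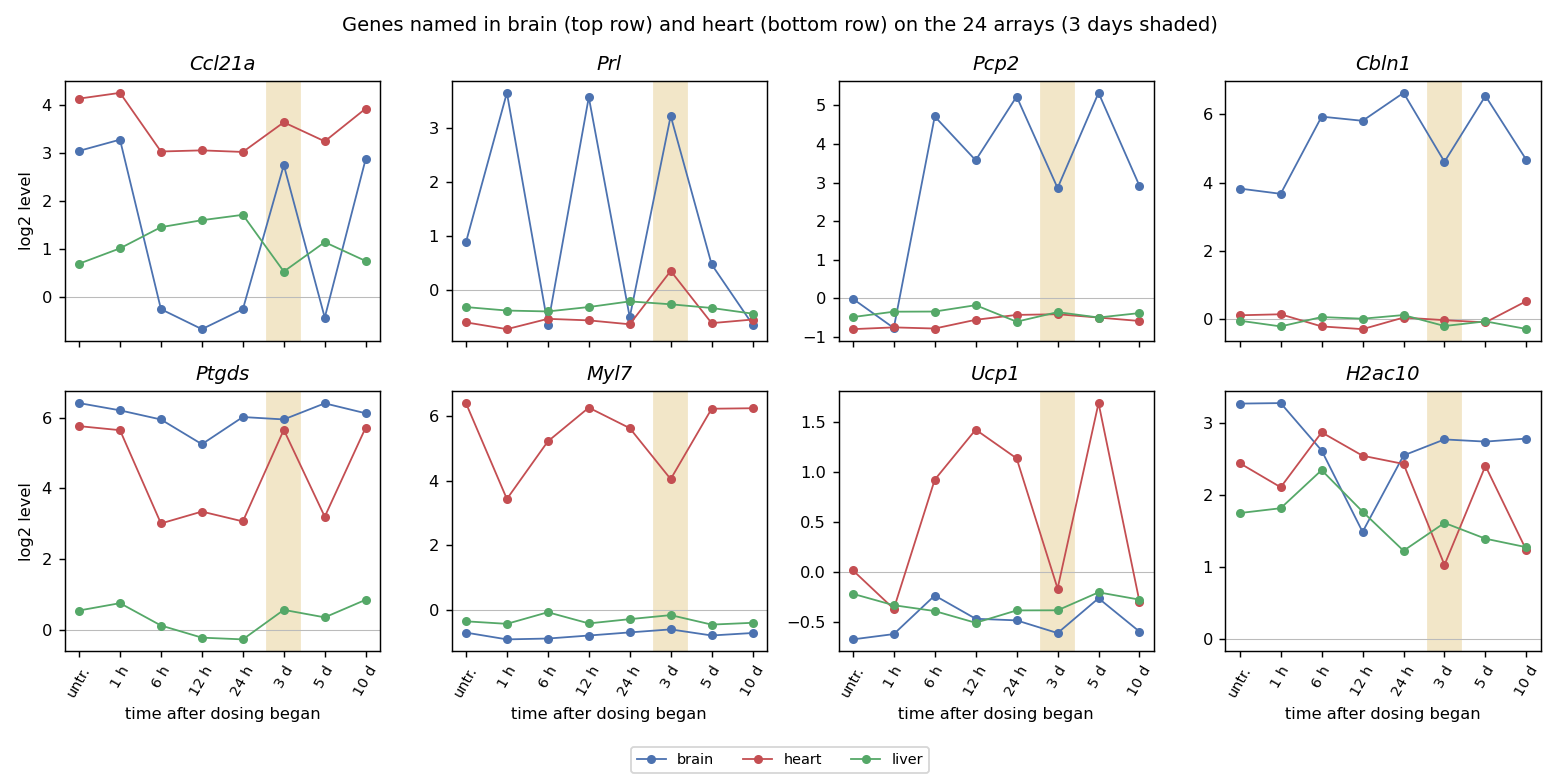
Log2 levels of genes named in brain (Ccl21a, Prl, Pcp2, Cbln1) and heart (Ptgds, Myl7, Ucp1, H2ac10) on all 24 arrays, with 1 array per point, times in order (not to scale) and 3 days shaded. Brain Ccl21a and heart Ptgds stand at 2.75 and 5.65 at 3 days, near their untreated levels of 3.05 and 5.76 and above those of 24 hours and 5 days.

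In liver alone 0 genes were called (limma, 1863 at an unadjusted p under 0.05). The 3-day array lay at least 1.5-fold above both neighbours for 157 genes (1.44%) and below for 1086 (9.93%), and after quantile normalization within the tissue for 340 and 371. Beside Gadd45g, Usp2 and Ciart on the low side, 3 genes were named as higher. Hacl1, a peroxisomal lyase of fatty acid breakdown, read 0.63, 2.80 and 0.96, and it had read 2.76 at 1 hour, 2.84 at 6 hours and 2.79 at 10 days. With the mean of its probes the liver change of Hacl1 was 0.94, smaller than that of its brightest probe. Cxcl1, a chemokine that draws neutrophils, read 1.98, 3.54 and 1.91, below its untreated level of 4.90. Gsta2, a glutathione transferase gene, read 1.16, 2.73 and 1.17, above each of the other liver arrays, the nearest of which was 1.71 at 10 days.

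Gene lists of liver function had a direction that depended on the scaling. Hepatocyte markers had a median liver change of -1.73 on the deposited values and 0.15 after quantile normalization, with Apoa2 at 11.15, 8.20 and 9.32. Genes of xenobiotic metabolism had -0.85 and 0.29, acute phase genes -0.35 and 0.42, oxidative phosphorylation -0.95 and 0.31, and cytosolic ribosomal proteins -1.09 and 0.02. Cholesterol synthesis genes had -0.09 and 0.52. Cyp3a11, a cytochrome P450 of drug metabolism, was one such gene, with 9.83, 7.15 and 7.59 in liver and a liver change of -1.56 that became 0.13.

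Some single genes had 1 direction in both scalings, chosen after their values were seen. Sc5d, an enzyme gene late in cholesterol synthesis, read 0.63, 2.33 and 1.47 in liver and 0.80, 1.29 and 0.64 in brain, at 1.28 in liver before and 1.40 after normalization. Cyp2c29 read 1.93, 2.41 and 1.17 in liver, at 0.87 and 1.07. Atp5c1, a subunit gene of ATP synthase, read 8.73, 5.36 and 6.94 in liver, at -2.48 and -1.13, and its 3-day array was also lowest in brain, at 6.35, 5.74 and 6.51. Of 19 tested genes of translation initiation, elongation and poly(A) binding, 3 were higher and 0 lower at an unadjusted p under 0.05, beside 5.94% and 7.66% of all genes, with a median change of -0.12. Eif4ebp2, an inhibitor of translation initiation, read 0.88, 2.53 and 1.08 in brain, 2.23, 3.35 and 2.27 in heart, with 3.97, 4.17 and 4.13 in liver, a change of 0.93 (SE 0.23). Eif3a, a subunit of an initiation factor, differed by 0.61 (SE 0.16), with 2.17, 2.86 and 1.72 in liver.

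**Figure D5:**
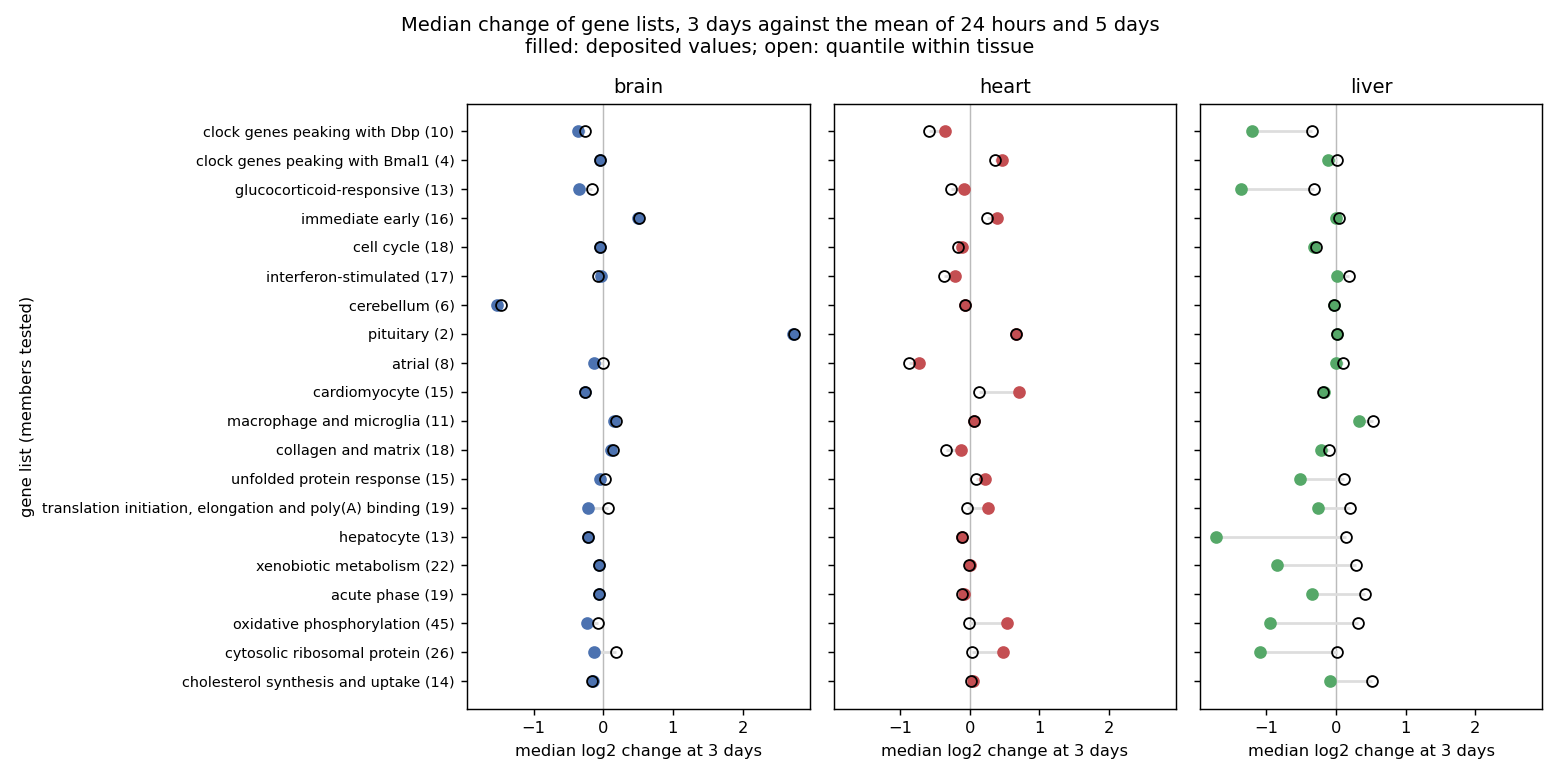
Median log2 change at 3 days of 20 gene lists, by tissue, on the deposited values (filled) and after quantile normalization within each tissue (open), with the number of tested members in brackets. In liver the hepatocyte median moves from -1.73 to 0.15. The brain medians of cerebellum genes and of the 2 tested pituitary genes, -1.52 and 2.72, move by little.

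The test of whether the 3-day change differed between tissues called 0 of 10934 genes (limma F test, lowest adjusted p = 0.296, 1275 at an unadjusted p under 0.05), and 7 after quantile normalization within each tissue. Among these 7 were Ccl21a, Ccl21c, Pcp2 and Gadd45g, at adjusted p of 0.0299 to 0.0402. On the normalized values Pcp2 had changes of -2.31, 0.05 and 0.18 in the order brain, heart, liver, and Gadd45g of -0.35, -1.36 and -3.65. On the deposited values, where neither was called, Pcp2 had -2.42, 0.05 and 0.19, and Gadd45g -0.51, -1.16 and -4.24.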

How the data were processed

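Total RNA of brain, heart and liver was copied into biotin-labelled cRNA with an Illumina kit and read on bead arrays, per the labels' protocols. The deposited table holds log2 values of 25697 probes on 24 arrays. That the base is 2 is taken and not stated. How the authors corrected background and normalized is not given in the sources used. From the values, each array is centred near 0. An intensity table, also deposited, was left out: the names of its 24 value columns fit no label. Arrays were grouped by title, with 1 array per tissue and time, and their number limits the precision. No detection calls or dates were used.

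A gene symbol was held by 23141 probes and lacking for 2556. For each of 16110 genes the probe with the highest mean over 24 arrays was used, and the 10934 above the array median on at least 4 of 24 arrays were tested. The 3-day arrays were set against the mean of 24 hours and 5 days with limma 3.58.1 (lmFit and eBayes, R 4.3.3, two-sided), with tissue as a block. Tests within a tissue used the spread between 24 hours and 5 days over the 3 tissues. Tests were adjusted by Benjamini-Hochberg over all genes tested and called under 0.05. The code was tested on simulated data. The highest Pearson correlation between arrays was 0.996, so none was a copy.

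The members, gene lists and naming rule were chosen with earlier results of these data known. Named genes were the called genes with the largest changes. Where too few were called, as here, they were the 6 lowest unadjusted p in each direction among genes at least 1.5-fold changed and on 1 side of both neighbours in 3 tissues. In each tissue they were the 3 largest distances from the nearer neighbour in each direction. Of a list up to 4 members with the largest change were named, and further members were chosen after their values were seen. Alternatives were 3 other scalings, 2 other filters, averaging the probes of a gene, robust eBayes with a variance trend, a fit over 24 arrays, and leaving out each tissue or array.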

Additional observations from a re-analysis of the deposited data

How the results depend on the processing

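The counts of called genes depended on the scaling and on the liver arrays, while the named genes kept their direction under the alternatives run. Against 0 calls on the deposited values, quantile normalization within each tissue called 114 genes higher and 279 lower at 3 days, 2 against 24 hours alone, 92 in brain, 247 in liver and 7 for the difference between tissues. Quantile normalization over the 9 arrays called 91 and 241, 1 against 24 hours, 3 against 5 days, 37 in brain and 14 in liver. Without a filter 29 were called in liver. The mean of a gene's probes called 2 higher and 1 lower, 2 in brain and 16 in liver. A variance trend with robust eBayes called 7 higher, 1 against 24 hours, 3 against 5 days, 45 in brain and 13 in liver. The fit over all 24 arrays called 54 higher and 44 lower. Leaving out 1 tissue or array gave 0 to 698 higher and 0 to 406 lower, the highest without liver. It gave 0 to 43 against 24 hours and 0 to 52 against 5 days, and within tissues 0 to 3162 in brain, 0 to 2460 in heart, 0 to 5131 in liver and 0 to 6026 for the difference between tissues. The highest of these came without 1 of the neighbouring liver arrays, when the spread rests on brain and heart only. Of 54 lists, 21 had a median over the tissues of the opposite sign after quantile normalization within each tissue, 8 of them among the 20 described. These were hepatocyte (-0.53 and 0.11), xenobiotic (-0.31 and 0.12), ribosomal protein (-0.24 and 0.11), acute phase (-0.23 and 0.09), translation (-0.12 and 0.0046), oxidative phosphorylation (-0.11 and 0.03), cholesterol (-0.02 and 0.17) and cardiomyocyte genes (0.05 and -0.15). Over the 9 arrays acute phase and cholesterol genes had 0.10 and 0.15. The macrophage and microglia median of 0.31 became 0.14 with the mean of probes. Beyond the scaling, the cause was not tested. The planned use of the intensity table was not run, since its columns match no label. No paired analysis was possible because the labels give no replicate numbers and each tissue and time has 1 array.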

Other observations

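Some genes of groups not described above are given here as values only. Of 13 macrophage and microglia markers 11 were tested, with a median change of 0.31. At an unadjusted p under 0.05, 0 were lower, and 1 member was higher, near the 7.66% and 5.94% of all genes. That gene, Tyrobp, an adaptor of myeloid receptors, read 0.58, 1.23 and 0.85 in brain, 1.01, 1.44 and 0.81 in heart, with 0.34, 0.92 and 0.02 in liver at 24 hours, 3 days and 5 days. Cx3cr1, the fractalkine receptor of microglia, read 1.98, 3.47 and 2.35 in brain. In liver the Kupffer cell genes Clec4f and Vsig4 ran downward instead, at 4.73, 2.76 and 2.30, and at 5.01, 3.43 and 1.53. Of 18 tested collagen and matrix genes, 2 were higher and 2 lower at an unadjusted p under 0.05, near the 5.94% and 7.66% of all genes. Col15a1 read 2.75, 3.63 and 2.97 in heart, while Col5a1 read 3.68, 2.95 and 3.86 there. Of 15 tested genes of the unfolded protein response, 1 was higher and 1 lower at an unadjusted p under 0.05, near the 5.94% and 7.66% of all genes. Ddit3, the CHOP gene, differed by -0.49 (SE 0.15) and Atf4 by 0.39 (SE 0.16), neither of them called. Jak2, a kinase of growth hormone signalling, read 2.49, 2.76 and 2.49 in brain, 2.26, 2.83 and 2.30 in heart, with 1.18, 1.56 and 0.71 in liver.

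Called in each of 4 settings were 70 of 10934 genes, 37 higher and 33 lower, a set picked after the values were seen. The settings were quantile normalization in either form, the fit over all 24 arrays, and the fit without the liver array of 24 hours. Over the tissues 0 genes were called on the deposited values, with arrays scaled to 1 median absolute deviation, with no filter or with the stricter filter. The set therefore rests on the settings chosen. Slc2a1, the glucose transporter GLUT1, had the lowest change of the 70. It read 5.64, 4.18 and 5.58 in brain, 2.77, 2.46 and 3.08 in heart, with 3.30, 1.37 and 2.98 in liver. Smarcd2, a chromatin remodelling subunit gene, read 3.62, 2.35 and 3.32 in brain and 5.79, 3.94 and 5.27 in liver. Bcat2, which starts the breakdown of branched-chain amino acids, read -0.09, 1.02 and -0.08 in brain, 3.45, 4.61 and 3.37 in heart, with 0.66, 1.83 and 1.62 in liver. Pcyt1a, the rate-limiting enzyme of phosphatidylcholine synthesis, read 1.56, 2.66 and 1.28 in brain and 2.67, 4.07 and 2.63 in heart. In liver Pcyt1a read 2.83, 2.85 and 2.37, so that 24 hours and 3 days were close there.

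Neighbouring arrays also carried genes of other cells. The liver array of 24 hours read 2.73 for Tnnc1, a troponin of heart and slow muscle, and 2.00 for the heart myosin gene Myl2, against 0.53 and -0.46 at 3 days. The heart array of 5 days read 2.83 for Slc4a1, the anion exchanger of red cells, and 5.27 for the globin gene Hbb-bt, against 0.57 and 3.57 at 3 days.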
